A study of Mus musculus with 20 samples.

Results

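Adding an antibody against SIRPa to radiotherapy and anti-PD-1 was examined in 8 of the 20 RNA-seq libraries of the series. The 4 libraries of tumours that received 8 Gy with both antibodies were set against the 4 libraries of tumours that received 8 Gy with anti-PD-1 and no anti-SIRPa. Each library was paired with the one from the same sorted population, and changes shared by the 4 populations were sought. C57BL/6 mice carried MC38-OVA tumours, a mouse colon carcinoma line that produces the model antigen ovalbumin. Focal radiotherapy of 8 Gy was given on day 12. In the combination group, 400 µg of anti-SIRPa was given on days 12, 14 and 16 and 250 µg of anti-PD-1 on days 12 and 15, and the comparison group received the anti-PD-1 doses with no anti-SIRPa. A second comparison, in 8 other libraries, set 8 Gy with anti-SIRPa against 8 Gy alone. Tumours of all these groups were irradiated and were taken on day 17, 5 days after irradiation. Leukocytes of 10 tumours, 1 per mouse, were pooled for each treatment and sorted into CD8 T cells, CD11c+CD11b+ cells, CD11c+CD11b- cells and CD11c-CD11b+ cells. The labels call both CD11c+ fractions dendritic cells. Every treatment was therefore 1 pool, and each population of a treatment was 1 library with no replicate. The p-values below measure how evenly a change was seen across the 4 populations of a pool, and the spread between pools was not measured.

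SIRPa is an inhibitory receptor of macrophages, neutrophils and many dendritic cells. It binds CD47 on other cells and recruits the phosphatases SHP-1 and SHP-2, which restrain engulfment. PD-1, encoded by Pdcd1, restrains activated T cells when it binds PD-L1, encoded by Cd274, on tumour and myeloid cells. Antibodies to both receptors thus act on different partners of the same immune response, phagocytes in the one case and T cells in the other.

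The libraries held 24946959 to 34189038 counts with both antibodies and 22475552 to 27869673 counts with anti-PD-1. The other 8 irradiated libraries held 21954354 to 35696925 counts with anti-SIRPa and 21522743 to 30821075 counts with radiotherapy alone. Levels are given as CPM, the count scaled to a library of fixed size, after TMM normalisation, always in the order CD8 T, CD11c+CD11b+, CD11c+CD11b- and CD11c-CD11b+. The sort markers followed the labels. Cd8a stood at 1139, 2.66, 27.4 and 14.3 CPM with both antibodies and at 1179, 3.48, 40.4 and 13.9 CPM with anti-PD-1, and Itgam, which encodes CD11b, at 173, 1628, 66.2 and 1539 CPM and 156, 1613, 59.1 and 1891 CPM. Itgax, which encodes CD11c, stood at 46.9, 404, 333 and 73.2 CPM with both antibodies and at 39.9, 345, 402 and 78.1 CPM with anti-PD-1. The CD11c+CD11b- libraries also carried markers of NK cells, with 11 NK cell genes summing to 427, 731, 1765 and 529 CPM with both antibodies and 401, 687, 1498 and 647 CPM with anti-PD-1. In pooled sorted cells, fewer cells of a type and less RNA per cell cannot be told apart.

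Few genes changed in all 4 populations together. In edgeR's quasi-likelihood test with population as a term and 3 residual degrees of freedom, 4 of 21037 genes passed an adjusted p of 0.05 (Benjamini-Hochberg over all genes tested). Of these, 3 were higher with both antibodies, which is 0.0143% of the genes tested, and 1 was lower, which is 0.00475%. Before adjustment, 730 genes (3.47%) were higher and 310 (1.47%) were lower at a p under 0.05, 4.94% of all genes tested. The pair ratios of the 4 populations were weakly related across genes, with Spearman coefficients from -0.036 to 0.165, given as a description. The SD of the log2 ratio among genes at 50 CPM or more was 0.21 in CD8 T cells and 0.24, 0.29 and 0.26 in the other 3 populations.

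All 4 called features were gene records that overlap another record of the same locus in the GENCODE M21 annotation of GRCm38. The record Myl12b_ENSMUSG00000117098 (chr17:70974119-71002208) spans the myosin regulatory light chain genes Myl12b and Myl12a and held 1287, 234, 0 and 0 counts with both antibodies, against 0, 0, 0 and 0 with anti-PD-1. Taking 3 counts as the most that the zero libraries together allow, it was at least 454-fold higher (adjusted p = 0.00343, edgeR). Gm49510 (chr15:78899667-78919032), a predicted gene that overlaps Sh3bp1, held 73, 223, 160 and 139 counts with both antibodies and 0, 0, 0 and 0 with anti-PD-1, at least 177-fold higher (adjusted p = 0.00521, edgeR). Gm49380 (chr9:44066327-44113500), which overlaps Rnf26, held 587, 519, 0 and 453 counts with both antibodies and 32, 14, 0 and 0 with anti-PD-1, a log2 change of 5.11 ± 0.57 SE (adjusted p = 0.0416, edgeR). The lower record was Rmrp_ENSMUSG00000115420, with 0, 0, 0 and 0 counts with both antibodies and 392, 0, 0 and 348 with anti-PD-1, at least 276-fold lower (adjusted p = 0.00521, edgeR). Only Gm49510 was above 0 in all 4 libraries of one group and at 0 in all 4 of the other. When the counts of overlapping genes were summed to loci, an alternative added after seeing the data, no locus passed the test (edgeR, 1054 loci at an unadjusted p under 0.05). The loci that hold the 4 records then had log2 changes of -0.04, 0.03, 0.13 and 0.22 for Myl12b, Gm49510, Gm49380 and Rmrp.

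The sequence at the Rmrp locus is shown because 2 nearly identical records share it. Rmrp encodes the RNA component of the RNase MRP endonuclease. The record that fell covers 281 bases of chr4:43492783-43493063 on the minus strand and contains the whole 271-base transcript of the other record, Rmrp_ENSMUSG00000088088. The sequence is that of the longer record in GENCODE M21, written 5′ to 3′, with the 5 bases at each end that the shorter record lacks in capitals.
Rmrp_ENSMUSG00000115420: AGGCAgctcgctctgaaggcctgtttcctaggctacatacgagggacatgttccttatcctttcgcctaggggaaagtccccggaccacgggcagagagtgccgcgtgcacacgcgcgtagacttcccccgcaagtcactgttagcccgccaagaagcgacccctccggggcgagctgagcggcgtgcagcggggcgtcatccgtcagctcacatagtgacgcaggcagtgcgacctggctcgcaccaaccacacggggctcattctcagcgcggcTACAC
The shorter record stood at 134, 317, 32.3 and 211 CPM with both antibodies and 47.6, 284, 31.9 and 257 CPM with anti-PD-1, well above the longer one in every library, and its shared change was 0.33 ± 0.23 SE (adjusted p = 1, edgeR).

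DESeq2, run as an alternative on the same 8 libraries and the same design, called 89 genes higher (0.423%) and 32 lower (0.152%) at an adjusted p of 0.05. The shares are of all 21037 genes, of which 3671 got no adjusted p from DESeq2 and could not be called. Among the genes with an adjusted p the shares are higher. The 32 included Rnf26, which the edgeR call Gm49380 overlaps, at a log2 change of -0.63 (adjusted p = 0.023, DESeq2). One of the 4 edgeR calls, Gm49510, was among the DESeq2 calls. The text below gives DESeq2's adjusted p beside edgeR's for this reason and uses "called" for edgeR unless DESeq2 is named. A gene was counted as higher in all 4 pairs when each population's ratio was above 1. That held for 1456 genes (6.92%), and 934 genes (4.44%) were lower in all 4 pairs.

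**Figure D1:**
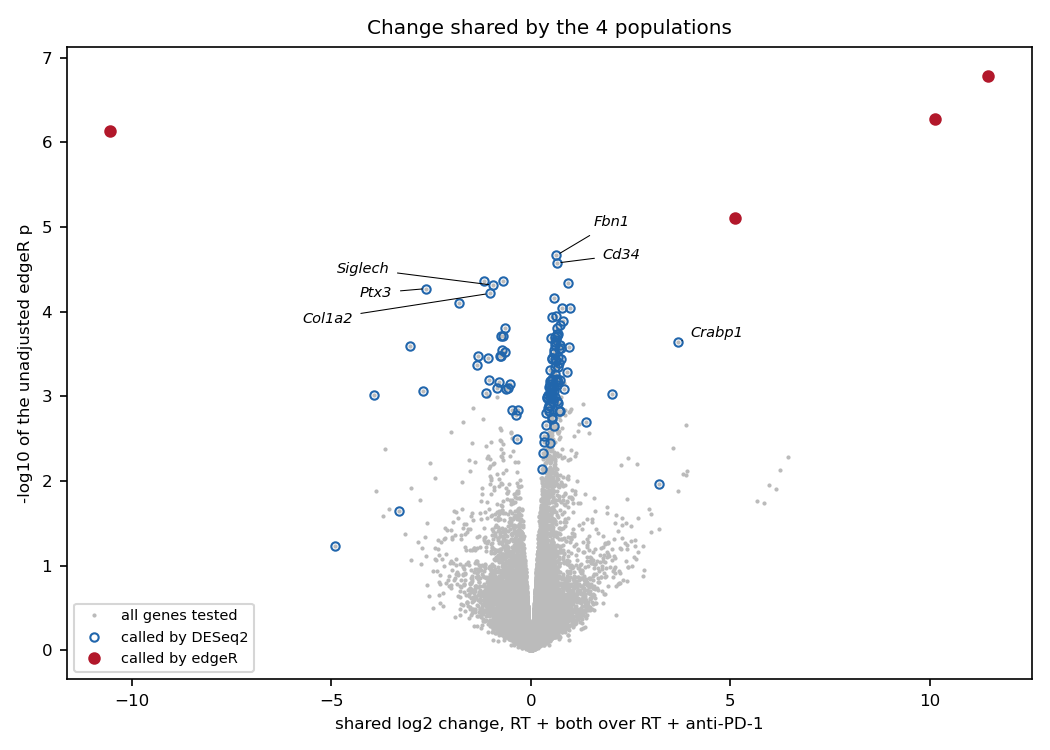
Change shared by the 4 populations for the 21037 genes tested. The x axis is the log2 change of 8 Gy with both antibodies over 8 Gy with anti-PD-1 and the y axis is -log10 of the unadjusted edgeR p; the 4 genes called by edgeR (red) are records that overlap another gene, and the genes called by DESeq2 (blue circles) hold Fbn1, Siglech and Col1a2.

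Matrix and stromal genes made up the largest listed group among the DESeq2 calls, and they went in both directions. The list held 24 genes of fibroblasts and extracellular matrix, all measured. None was called by edgeR, 9 were called higher and 3 lower by DESeq2, 11 were higher in all 4 pairs and 3 lower in all 4. Over all genes tested, DESeq2 called 0.423% higher and 0.152% lower, and 6.92% were higher and 4.44% lower in all 4 pairs. The members of a list are not independent of one another. The median log2 change of the list was 0.36, against 0.007 for all genes tested. All genes at 10 CPM or more had medians by population of -0.002, 0.146, -0.02 and -0.057. By population the list medians were 0.56, 0.45, 0.43 and -0.09, so the CD11c-CD11b+ cells did not share the higher median. Lists of other kinds had the same order of signs. The medians by population were 0.32, 0.51, 0.40 and -0.17 for the 13 genes of the mitochondrial genome, whose share of a library can vary with RNA quality, and 0.56, 0.24, 0.41 and -0.10 for 12 macrophage genes. The part of RNA quality or of other cells in the matrix values was not tested.

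Type VI collagens form beaded microfibrils, and type V collagens nucleate collagen fibrils. Col6a1 stood at 96, 154, 82 and 236 CPM with both antibodies and at 47.4, 86.7, 63.8 and 177 CPM with anti-PD-1. It was higher in each of the 4 pairs, with a shared log2 change of 0.65 ± 0.12 SE (adjusted p = 0.149 with edgeR and 0.00032 with DESeq2). Col6a3 had 112, 199, 121 and 303 CPM with both antibodies and 77.2, 119, 86.1 and 239.7 CPM with anti-PD-1, again higher in all 4 pairs (0.53 ± 0.09 SE; adjusted p = 0.136 with edgeR, 4.2e-06 with DESeq2). Col6a2, Col5a1 and Col5a2 had log2 changes of 0.61, 0.68 and 0.46 and were also higher in all 4 pairs.

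Fbn1, which encodes the microfibril protein fibrillin-1, had the lowest p after the 4 called records. Its level was 133, 268, 162 and 389.8 CPM with both antibodies and 84.8, 163, 94.7 and 292 CPM with anti-PD-1, a log2 change of 0.64 ± 0.09 SE (adjusted p = 0.0909 with edgeR, 3.9e-09 with DESeq2). With genes under a mean of 0.5 CPM left out, a filter added after seeing the data, its adjusted p was 0.041 with edgeR. Cd34, a sialomucin of stromal, endothelial and progenitor cells, followed with 56.9, 94.2, 65.4 and 149 CPM with both antibodies and 33.9, 57.7, 39.3 and 112 CPM with anti-PD-1 (0.65 ± 0.09 SE; adjusted p = 0.0933 with edgeR, 3.3e-07 with DESeq2), and 0.041 under the same filter with edgeR. Hspg2, which encodes the basement membrane proteoglycan perlecan, stood at 95.6, 176, 102 and 265 CPM with both antibodies and 56.4, 111, 73 and 203 CPM with anti-PD-1 (0.57 ± 0.09 SE; adjusted p = 0.11 with edgeR). Cd34 and Hspg2 are on none of the lists, and they and Fbn1 were picked for their low p after their values were seen. All 3 genes were higher in each pair, and in each case the smallest of the 4 ratios was that of the CD11c-CD11b+ cells.

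Col3a1, the fibrillar collagen taken as the marker of the group, stood at 341, 579, 322 and 826 CPM with both antibodies and 228, 393, 245 and 849.6 CPM with anti-PD-1. It was higher in 3 of 4 pairs and level in the CD11c-CD11b+ pair, with a shared log2 change of 0.37 ± 0.11 SE (adjusted p = 0.529 with edgeR, 0.12 with DESeq2). The other main fibrillar collagen genes lay on the opposite side. Col1a2, which encodes a chain of type I collagen, stood at 34.4, 49.5, 17.2 and 62.1 CPM with both antibodies and 47.9, 87.3, 41.6 and 185 CPM with anti-PD-1. It was lower in every pair, with a shared log2 change of -1.04 ± 0.16 SE (adjusted p = 0.107 with edgeR, 5.2e-06 with DESeq2). Col1a1, the other chain of type I collagen, had 66.3, 93, 33.2 and 137 CPM with both antibodies and 76.9, 142, 77 and 294 CPM with anti-PD-1 (-0.79 ± 0.15 SE; adjusted p = 0.151 with edgeR, 0.00053 with DESeq2). Without the CD8 T pair, both type I collagen genes passed edgeR's test, at adjusted p = 0.04 for Col1a2 and 0.045 for Col1a1. Neither passed without the CD11c+CD11b+, the CD11c+CD11b- or the CD11c-CD11b+ pair. The adjusted p was then 0.829, 0.232 and 0.124 for Col1a2 and 0.973, 0.363 and 0.276 for Col1a1 (edgeR). Bgn, which encodes the proteoglycan biglycan, was also lower in all 4 pairs (-0.58), and Postn, which encodes periostin, in 3 of 4 (-0.59).

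Serping1 and Svep1, which encode secreted proteins, had low levels and were lower in every pair. Serping1, the C1 inhibitor of the complement cascade, stood at 2.17, 3.7, 1.8 and 5.82 CPM with both antibodies and 4.79, 7.92, 3.72 and 15.1 CPM with anti-PD-1 (-1.17 ± 0.17 SE; adjusted p = 0.102 with edgeR, 0.00024 with DESeq2). Svep1, an extracellular adhesion protein gene, stood at 0.758, 1.07, 0.826 and 2.46 CPM with both antibodies and 2.49, 5.93, 1.58 and 9.51 CPM with anti-PD-1 (-1.81 ± 0.28 SE; adjusted p = 0.117 with edgeR). Serping1 was 1 of the 9 genes at least 2-fold lower in all 4 pairs, and Svep1 was picked after its values were seen.

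These stromal transcripts were found in every sorted population, CD8 T cells included. The 24 matrix genes summed to 3187, 5153, 2227 and 7778 CPM with both antibodies and 2640, 3954, 1704 and 7507 CPM with anti-PD-1, higher with both antibodies in each pair. Endothelial markers (9 of 11 measured) summed to 57.4, 188, 231 and 132 CPM with both antibodies and 41.5, 174, 270.3 and 147 CPM with anti-PD-1. Epithelial and tumour cell markers (6 of 11 measured) summed to 24.2, 67.2, 87.7 and 26.7 CPM with both antibodies and 22, 71.3, 141 and 34.1 CPM with anti-PD-1. The part of stromal cells or of free stromal RNA in the matrix values was not tested. Transcript length was compared with the change after seeing the data, and its part was likewise not tested. Among 10727 genes at 10 CPM or more in 2 libraries, the median log2 change was -0.02 for those whose longest annotated transcript was under 1 kb and 0.01 for those of 8 kb or more. The single pairs differed in sign. In CD8 T cells the medians of the same classes were -0.10 and -0.01, in CD11c+CD11b+ cells 0.15 and 0.05, in CD11c+CD11b- cells -0.03 and 0.03, and in CD11c-CD11b+ cells -0.10 and 0.01. Across these genes, which are not independent, the Spearman coefficients of length and ratio were 0.08, -0.11, 0.06 and 0.13 in the 4 pairs. The 89 genes called higher by DESeq2 had a median length of 4951 bases, against 2363 for the 32 called lower. The median over the 10727 genes was 3429 bases.

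**Figure D2:**
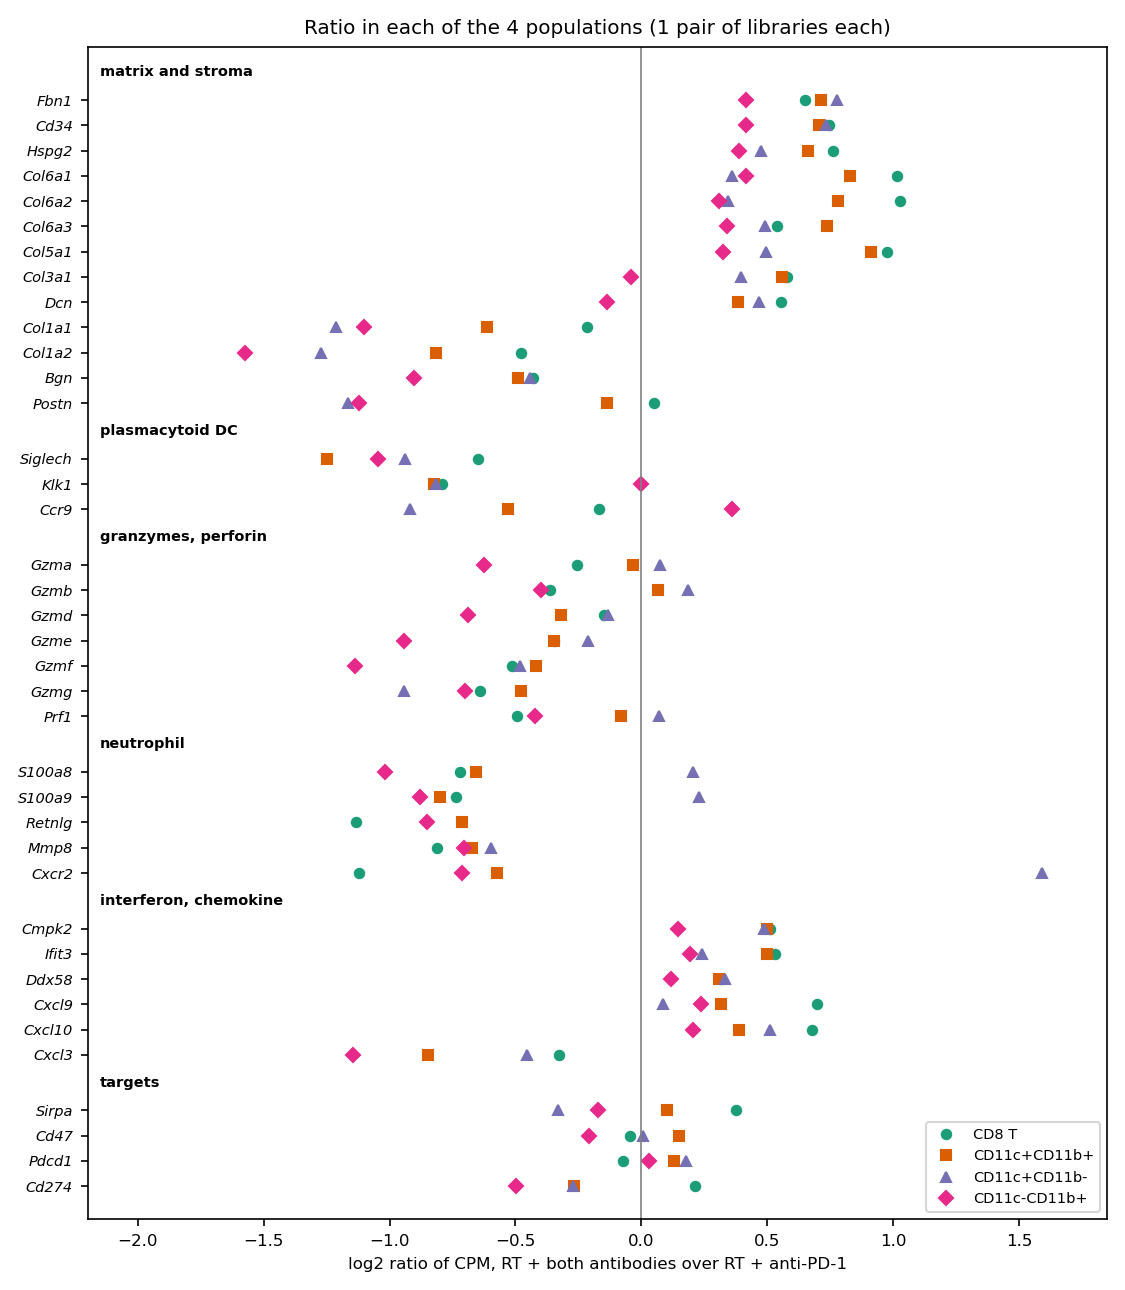
Ratio of both antibodies over anti-PD-1 in each population. The x axis is the log2 ratio of CPM in 1 pair of libraries (with a prior count of 2), and each symbol is 1 population. Genes are grouped by kind and not strictly by list, and Cd34 and Hspg2 are on none of the lists. Col6a1, Fbn1 and Cd34 lie right of 0 in all 4 populations, and Col1a2, Gzmf and Siglech left of 0 in all 4.

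Plasmacytoid dendritic cells are the main producers of type I interferon among blood and lymphoid cells, and Siglech is a surface lectin that marks them in mice. Siglech was concentrated in the CD11c+CD11b- libraries, at 1.58, 0.713, 124 and 0.112 CPM with both antibodies and 2.53, 1.8, 237 and 0.31 CPM with anti-PD-1. It was lower in each pair, and only the CD11c+CD11b- value was above 3 CPM. The shared log2 change was -0.96 ± 0.14 SE (adjusted p = 0.102 with edgeR, 0.0004 with DESeq2). With 1 population left out, Siglech had log2 changes of -1.07 to -0.88 and did not pass (adjusted p = 0.095 to 0.925, edgeR). Klk1, a kallikrein protease gene of the same list, had 0.344, 0.292, 47.3 and 0 CPM with both antibodies and 0.651, 0.574, 83.4 and 0 CPM with anti-PD-1 (-0.85 ± 0.18 SE; adjusted p = 0.214 with edgeR). Ccr9, a chemokine receptor of these cells, had 6.41, 5.25, 128 and 8.54 CPM with both antibodies and 7.21, 7.62, 241 and 6.64 CPM with anti-PD-1 (-0.36 ± 0.18 SE; adjusted p = 1 with edgeR).

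Across the 16 plasmacytoid genes measured, none was called by edgeR, 1 (Siglech) was called lower by DESeq2, none was higher in all 4 pairs and 2 were lower in all 4. Over all genes 0.152% were called lower by DESeq2 and 4.44% were lower in all 4 pairs. The list median was -0.16, and by population -0.03, 0.05, -0.69 and -0.02. The changes of single members ran from -0.96 to 0.45. Klra17, also on the list, had ratios of 15.79, 1.38, 0.82 and 0.87 in the 4 pairs (with a prior count of 2). The median was farthest below 0 in the CD11c+CD11b- pair, where the list summed to 2453 CPM with both antibodies and 3340 CPM with anti-PD-1.

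Granzymes are serine proteases that cytotoxic lymphocytes release through perforin pores. Gzma, the marker of the group, stood at 118, 46, 1046 and 86.4 CPM with both antibodies and 141, 47, 993 and 134 CPM with anti-PD-1. It was lower in 3 pairs and slightly higher in the CD11c+CD11b- pair (-0.21 ± 0.11 SE; adjusted p = 1, edgeR), and its highest level in both groups was in the CD11c+CD11b- cells, not in the CD8 T cells. Gzmb had 3345, 91, 2042 and 184 CPM with both antibodies and 4308, 86.8, 1798 and 242 CPM with anti-PD-1 (-0.13 ± 0.12 SE), and Prf1, which encodes perforin, had a log2 change of -0.23 ± 0.11 SE. Ifng, which encodes interferon gamma, stood at 654, 3.47, 91 and 9.92 CPM with both antibodies and 654, 2.68, 72.1 and 17 CPM with anti-PD-1. Gzma, Gzmb, Prf1 and Ifng passed neither edgeR nor DESeq2, and the sign of the Ifng change depended on the setting.

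Gzmd, Gzme, Gzmf and Gzmg, granzymes of the Gzmb gene cluster, were lower in all 4 pairs. Gzmf stood at 404, 15.1, 141 and 36.2 CPM with both antibodies and 577, 20.2, 197 and 79.9 CPM with anti-PD-1, lower in each pair (-0.64 ± 0.12 SE; adjusted p = 0.151 with edgeR, 0.00047 with DESeq2). Gzmg stood at 8.47, 3.99, 20.7 and 9.29 CPM with both antibodies and 13.3, 5.59, 39.8 and 15.1 CPM with anti-PD-1 (-0.71 ± 0.12 SE; adjusted p = 0.149 with edgeR, 0.0018 with DESeq2). Gzmd and Gzme had log2 changes of -0.32 and -0.46. These 4 genes are close paralogs, so reads can be shared among them. Of the 20 cytotoxic genes measured, none was called by edgeR, 2 were called lower by DESeq2, 2 were higher and 4 lower in all 4 pairs, and the list median was -0.12. Over all genes 0.152% were called lower by DESeq2, and 6.92% were higher and 4.44% lower in all 4 pairs. The 12 CD8 T cell genes had a median of -0.05 and the 11 NK cell genes one of -0.01, with no member called by either tool.

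**Figure D3:**
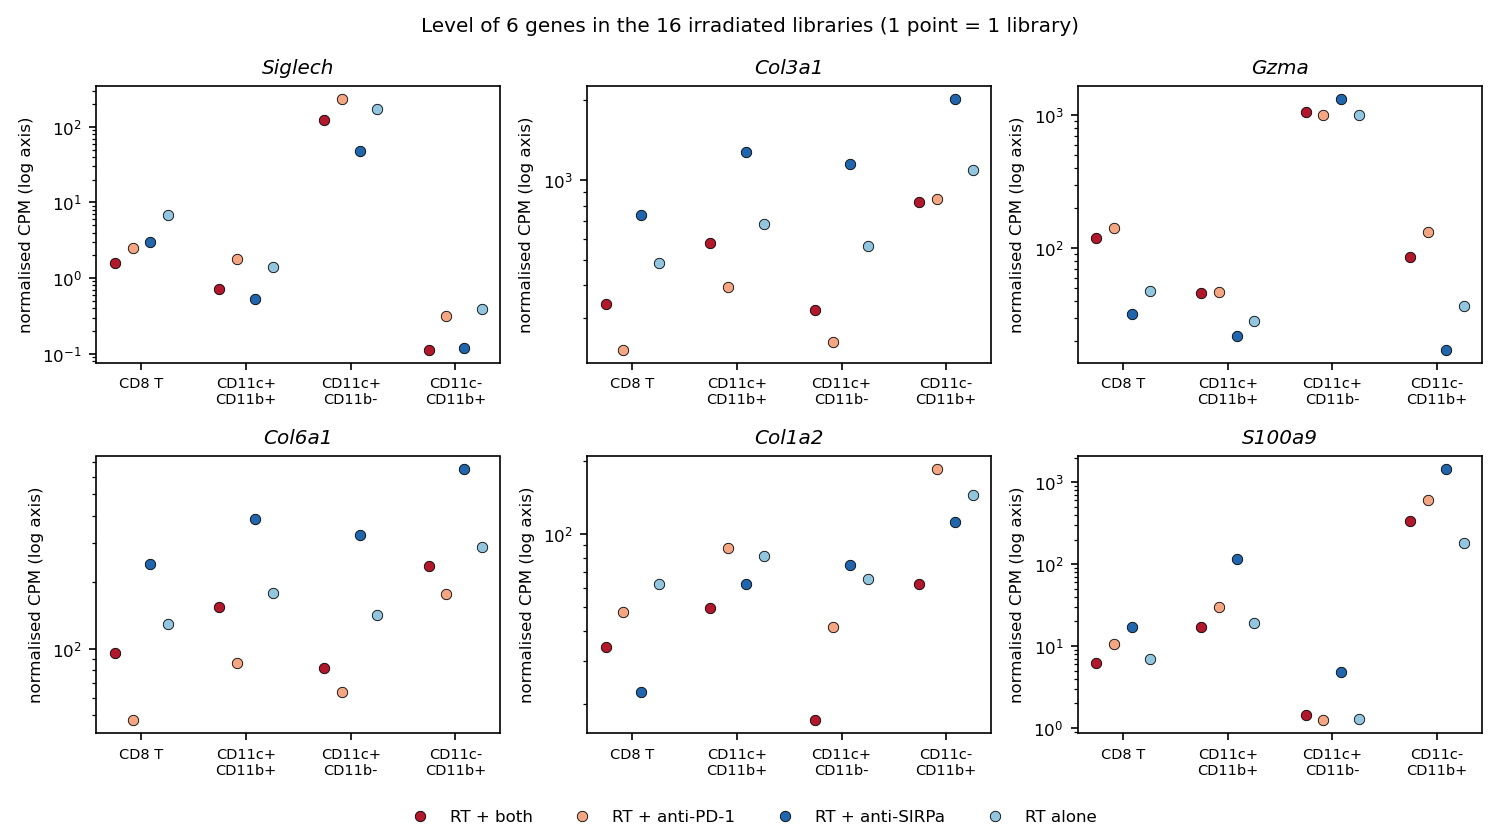
Level of 6 genes in the 16 irradiated libraries. Each point is 1 library, the y axis is normalised CPM on a log axis, and the colours are 8 Gy with both antibodies, with anti-PD-1, with anti-SIRPa and alone. Siglech, high only in the CD11c+CD11b- cells, is lower with anti-SIRPa in all 4 populations with and without anti-PD-1. S100a9 is lower in 3 of 4 populations with both antibodies against anti-PD-1 but higher in all 4 with anti-SIRPa against radiotherapy alone.

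Neutrophil genes had lower values with both antibodies in 3 of the 4 populations. S100a9, which encodes a subunit of calprotectin, stood at 6.27, 17.2, 1.46 and 332 CPM with both antibodies and 10.5, 30.1, 1.24 and 609.8 CPM with anti-PD-1. It was lower in 3 of 4 pairs, the exception being the CD11c+CD11b- cells where it was near 1 CPM (-0.72 ± 0.13 SE; adjusted p = 0.149 with edgeR, 0.0015 with DESeq2). Without that pair it passed edgeR's test (adjusted p = 0.033). It did not pass without the CD8 T, the CD11c+CD11b+ or the CD11c-CD11b+ pair (adjusted p = 0.377, 0.981 and 0.652, edgeR). S100a8, the other subunit, stood at 2.41, 10.5, 0.751 and 162 CPM with both antibodies and 4.02, 16.5, 0.641 and 327 CPM with anti-PD-1 (-0.75 ± 0.14 SE; adjusted p = 0.151 with edgeR, 0.0056 with DESeq2). Mmp8, the neutrophil collagenase, was lower in all 4 pairs, at 3.13, 24.2, 1.61 and 65.1 CPM with both antibodies and 5.56, 38.6, 2.48 and 106 CPM with anti-PD-1 (-0.71 ± 0.10 SE; adjusted p = 0.102 with edgeR, 2e-05 with DESeq2). Mmp9, a gelatinase also made by macrophages, had a log2 change of 0.38 ± 0.14 SE in the other direction.

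Of the 12 neutrophil genes, 11 were measured and none was called by edgeR. DESeq2 called 3 lower, against 0.152% of all genes, and the list median was -0.71, the lowest of the 39 lists. By population it was -0.72, -0.66, 0.21 and -0.66. The defining granulocyte marker Ly6g had at most 0.97 CPM in any of the 8 libraries. Cxcl3, a neutrophil-attracting chemokine of myeloid cells, was also lower in each pair, at 9.57, 63.1, 3.94 and 240.4 CPM with both antibodies and 12, 114, 5.42 and 532 CPM with anti-PD-1 (-0.75 ± 0.13 SE; adjusted p = 0.149 with edgeR, 0.00051 with DESeq2).

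Genes induced by type I interferon had slightly higher values with both antibodies. Of 30 listed genes 29 were measured, none was called by edgeR, 4 were called higher by DESeq2, and 12 were higher and none lower in all 4 pairs. Unadjusted, 14 of the 29 had an edgeR p under 0.05 and a higher level, against 3.47% of all genes. Over all genes 0.423% were called higher by DESeq2 and 6.92% were higher in all 4 pairs. The listed genes are not independent of one another. The list median was 0.19, and by population 0.41, 0.27, 0.15 and 0.02. For all genes at 10 CPM or more the medians by population were -0.002, 0.146, -0.02 and -0.057. Cmpk2, a mitochondrial nucleotide kinase gene, stood at 89.6, 148, 46 and 212 CPM with both antibodies and 62.9, 104, 32.7 and 192 CPM with anti-PD-1 (0.41 ± 0.09 SE; adjusted p = 0.214 with edgeR, 0.0092 with DESeq2). Ifit3, which binds viral RNA complexes, had 271, 542, 82.5 and 616 CPM with both antibodies and 188, 383, 69.7 and 538 CPM with anti-PD-1 (0.37 ± 0.09 SE; adjusted p = 0.31 with edgeR, 0.0066 with DESeq2). Both genes were higher in every pair, least so in the CD11c-CD11b+ cells. Isg15, another gene of the list, was higher in only 2 pairs (0.15 ± 0.09 SE).

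Among the 21 interferon gamma response genes, 8 were higher in all 4 pairs, against 6.92% of all genes, and none was lower in all 4. The list median was 0.14, and none was called by edgeR. Cxcl10, a ligand of the chemokine receptor CXCR3 of T cells, was the one gene of this list that DESeq2 called. It stood at 111, 381, 72.1 and 575 CPM with both antibodies and 69.6, 291, 50.5 and 499 CPM with anti-PD-1 (0.44 ± 0.09 SE; adjusted p = 0.207 with edgeR, 0.0039 with DESeq2). Cxcl9, a second CXCR3 ligand, was higher in all 4 pairs as well, at 19.8, 151, 39.3 and 113 CPM with both antibodies and 12.2, 121, 37 and 95.7 CPM with anti-PD-1 (0.33 ± 0.11 SE; adjusted p = 0.613, edgeR). Ifitm1, an interferon-induced membrane protein gene chosen after its values were seen, ran the other way at 58.3, 101, 43.8 and 53 CPM with both antibodies and 69.3, 157, 82.4 and 90.5 CPM with anti-PD-1 (-0.64 ± 0.11 SE; adjusted p = 0.149 with edgeR, 0.0003 with DESeq2). It passed edgeR's test without the CD8 T pair (adjusted p = 0.045). It did not pass without the CD11c+CD11b+, the CD11c+CD11b- or the CD11c-CD11b+ pair (adjusted p = 0.973, 0.284 and 0.195, edgeR).

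Macrophage genes had a median above 0 in 3 of the 4 populations. The 12 genes had a list median of 0.29, and by population 0.56, 0.24, 0.41 and -0.10. For all genes at 10 CPM or more the medians by population were -0.002, 0.146, -0.02 and -0.057. None of the 12 was called by either tool and 1 was higher in all 4 pairs, against 6.92% of all genes. That gene was Apoe, a lipid carrier of macrophages, at 805, 5732, 268 and 3800 CPM with both antibodies and 489, 4510, 208 and 3569 CPM with anti-PD-1 (0.38 ± 0.12 SE; adjusted p = 0.577 with edgeR, 0.059 with DESeq2). C1qa, which starts the classical complement cascade, stood at 174, 1294, 67.2 and 520.2 CPM with both antibodies and 119.5, 1057, 47.5 and 537 CPM with anti-PD-1 (0.32 ± 0.11 SE; adjusted p = 0.668, edgeR). Fcrls, an Fc receptor-like gene of mouse macrophages and microglia chosen after its values were seen, was higher in every pair at 9.3, 46.3, 3.98 and 33.3 CPM with both antibodies and 3.79, 27, 1.84 and 21.2 CPM with anti-PD-1 (0.92 ± 0.14 SE; adjusted p = 0.102 with edgeR, 0.0003 with DESeq2). Macrophage markers summed to 1863, 13940, 688 and 8411 CPM with both antibodies and 1216, 11410, 565 and 8519 CPM with anti-PD-1, so the CD8 T libraries carried them as well, and their part in the CD8 T ratios was not tested. The 13 genes of the mitochondrial genome had a median of 0.27, and by population 0.32, 0.51, 0.40 and -0.17, and none was called by either tool.

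The antibodies' targets and their ligands did not pass the test. Sirpa stood at 134, 1236, 98.6 and 763 CPM with both antibodies and 104, 1150, 124 and 861 CPM with anti-PD-1, higher in 2 pairs and lower in 2 (-0.01 ± 0.12 SE), a value whose sign turned with the setting. Cd47 stood at 481, 556, 679 and 470 CPM with both antibodies and 496, 501, 676 and 544 CPM with anti-PD-1 (-0.02 ± 0.09 SE), and the groups overlapped. Pdcd1, highest in CD8 T cells, had 329, 5.87, 20.5 and 3.69 CPM with both antibodies and 346, 5.36, 18.1 and 3.61 CPM with anti-PD-1 (0.06 ± 0.09 SE). Cd274 had 131, 484, 222 and 504 CPM with both antibodies and 113, 581, 268 and 711 CPM with anti-PD-1, lower in the 3 CD11b or CD11c populations and higher in CD8 T cells (-0.21 ± 0.11 SE). The adjusted p of each of the 4 genes was 1 with edgeR. The 25 genes of the SIRPa-CD47 and phagocytosis list had a median of 0.03. In all 4 pairs 1 was higher and 1 lower, against 6.92% and 4.44% of all genes.

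The remaining lists stayed closer to the median of all genes or differed in sign between populations. Proliferation genes (23) had medians of -0.28, 0.52, 0.18 and 0.06 by population, the highest being in the CD11c+CD11b+ pair and the only negative one in CD8 T cells. MHC class II genes (11) had medians of 0.47, 0.16, -0.46 and -0.02, negative mainly in the CD11c+CD11b- cells. In the same cells the conventional dendritic cell lists were negative as well, at -0.33 for 11 cDC1 genes and -0.38 for 9 cDC2 genes. No member of these 4 lists was called by either tool. Lipid synthesis genes (18) had a median of 0.14. Of these, 4 were higher in all 4 pairs, against 6.92% of all genes, and none was lower in all 4. Scd2, a fatty acid desaturase gene of this list, was called higher by DESeq2 (0.31 ± 0.08 SE, adjusted p = 0.452 with edgeR, 0.034 with DESeq2).

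**Figure D4:**
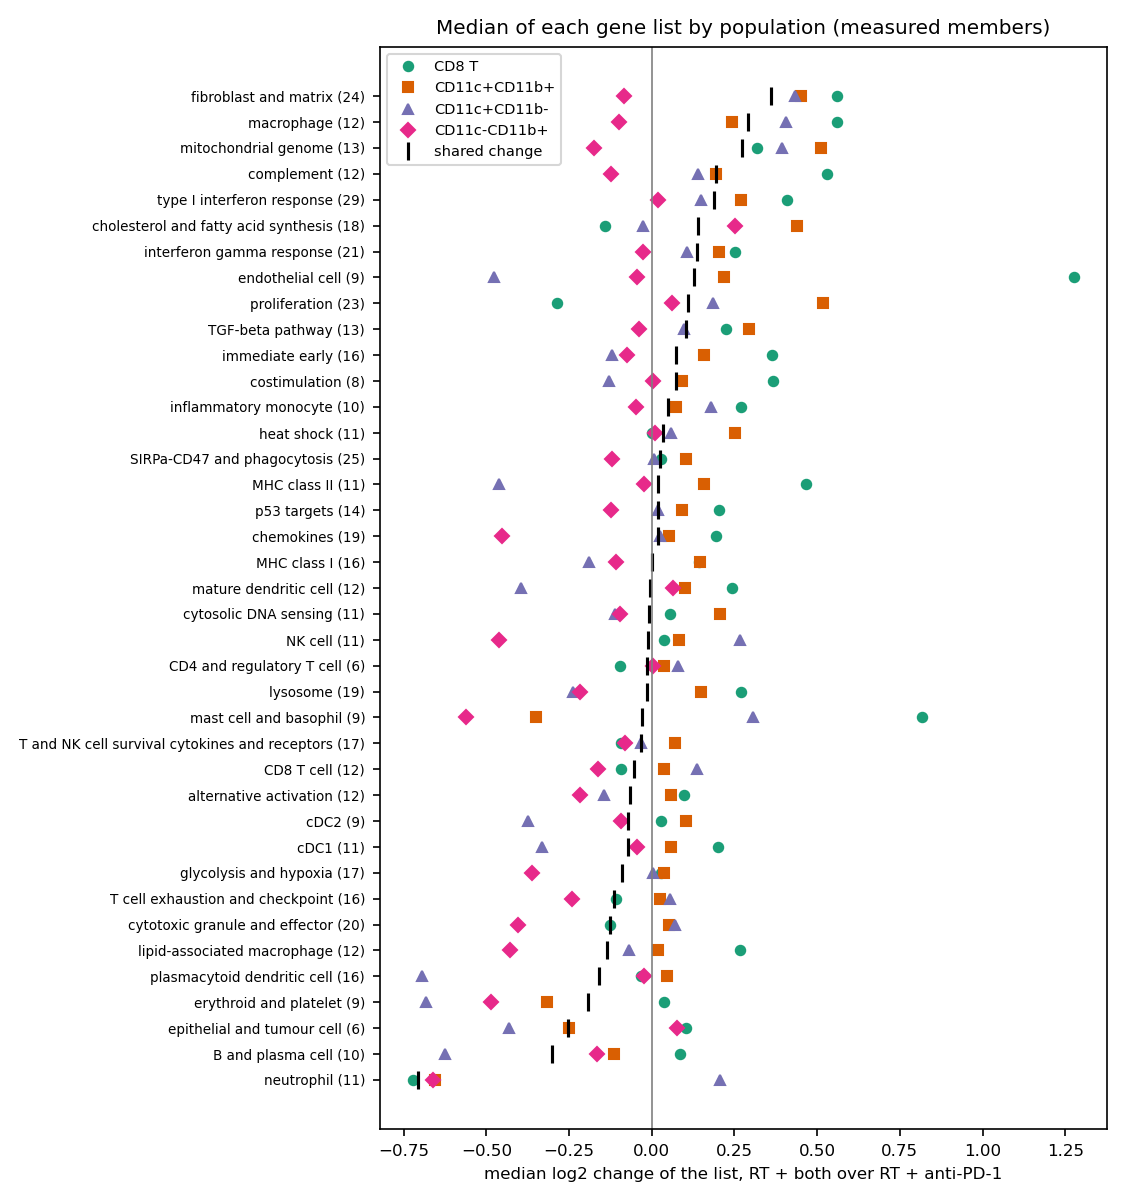
Median log2 change of the measured members of each of the 39 lists, with the number measured in brackets. Each coloured symbol is 1 population, the black bar is the median of the shared change, and the x axis is the log2 change of both antibodies over anti-PD-1. All genes at 10 CPM or more had medians of 0.146 in the CD11c+CD11b+ pair and -0.057 in the CD11c-CD11b+ pair. The matrix and macrophage lists lie right of 0 in 3 populations and left of it in the CD11c-CD11b+ cells, and the neutrophil list lies left of 0 in 3.

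Few genes differed by at least 2-fold in every population. Of the 21037 genes, 6 (0.0285%) were at least 2-fold higher in all 4 pairs and 9 (0.0428%) at least 2-fold lower, and none of the 15 reached 10 CPM in 2 libraries. Crabp1, which encodes a retinoic acid binding protein, stood at 1.21, 2.2, 1.8 and 2.46 CPM with both antibodies and 0, 0.306, 0 and 0.388 CPM with anti-PD-1 (3.69 ± 0.66 SE; adjusted p = 0.149 with edgeR, 0.002 with DESeq2). Tspan7 and Tmem40, membrane protein genes, had 0.827, 1.95, 0.789 and 2.13 CPM and 1.07, 2.17, 1.39 and 3.43 CPM with both antibodies, against 0.268, 0.728, 0.214 and 0.971 CPM and 0.421, 1.03, 0.598 and 1.59 CPM with anti-PD-1. Ptx3, a soluble pattern recognition protein made by stromal and myeloid cells, stood at 0.241, 0.227, 0.0376 and 0.821 CPM with both antibodies and 1.34, 1.8, 0.427 and 4 CPM with anti-PD-1 (-2.62 ± 0.39 SE; adjusted p = 0.102 with edgeR, 0.0014 with DESeq2). Cyp1b1, a target gene of the aryl hydrocarbon receptor, stood at 0.172, 0.195, 0 and 0.559 CPM with both antibodies and 1.3, 1.72, 0.47 and 1.67 CPM with anti-PD-1 (-2.72 ± 0.58 SE). With a prior count of 10 in place of 2, the count at 2-fold in all 4 pairs was 3.

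Within single populations, 2-fold differences at 10 CPM or more were also few and have no replicate check. Among 9741 genes in CD8 T cells, 44 (0.452%) had at least 2-fold more and 39 (0.4%) at least 2-fold less with both antibodies. The CD11c+CD11b+ pair had 49 (0.505%) with more and 67 (0.691%) with less among 9698. The CD11c+CD11b- pair had 31 (0.313%) with more and 48 (0.484%) with less among 9919. The CD11c-CD11b+ pair had 20 (0.204%) with more and 42 (0.428%) with less among 9821.

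The CD8 T pair was set against the 3 other pairs as an interaction term. The CD8 T side is 1 pair of libraries with no replicate, and the 2 residual degrees of freedom come from the 3 other pairs, so the test assumes that a CD8 T pair varies as they do. It does not separate a response of CD8 T cells from a deviation of 1 library. Of 22494 genes 18 (0.08%) passed, 12 with a higher and 6 with a lower change in CD8 T cells (edgeR), and 4.09% had an unadjusted p under 0.05. Without the CD11c+CD11b- pair the count was 173, and without the CD11c+CD11b+ pair it was 5. Aff3, a nuclear transcription elongation factor gene of lymphocytes, stood at 15.5, 2.27, 49.3 and 1.9 CPM with both antibodies and 1.26, 2.6, 55.8 and 1.75 CPM with anti-PD-1, and at 17.2 CPM with anti-SIRPa and 13.9 CPM with radiotherapy alone in the CD8 T libraries. The CD8 T library with anti-PD-1 was the low one of those 4 (log2 difference of the change 3.72 ± 0.36 SE; adjusted p = 0.0005, edgeR). Ube2l3, a ubiquitin-conjugating enzyme gene, stood at 131, 134, 113 and 117 CPM with both antibodies and 32.5, 119, 115 and 116 CPM with anti-PD-1 (1.96 ± 0.23 SE; adjusted p = 0.0034, edgeR). Its CD8 T levels were 103 CPM with anti-SIRPa and 120.5 CPM with radiotherapy alone, so the same library was the low one. Glcci1, a glucocorticoid-induced gene, had 8.89, 23.8, 49.3 and 18 CPM with both antibodies and 49, 20.4, 61.6 and 15.9 CPM with anti-PD-1 (-2.48 ± 0.30 SE; adjusted p = 0.0047, edgeR), and the difference was 0.07 once overlapping genes were summed to loci. Klra17, a lectin-like receptor gene, and the shorter Rmrp record also passed, with differences of 7.90 ± 1.32 SE and 1.53 ± 0.24 SE (adjusted p = 0.049 and 0.039, edgeR). After the sum over loci the differences were 7.94 and 1.19, and neither passed (adjusted p = 0.163 and 0.224, edgeR).

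The same antibody was also given after radiotherapy without anti-PD-1, in 8 libraries that the first comparison did not use. There, with the same model, 224 of 20698 genes (1.08%) were called higher with anti-SIRPa and 25 (0.121%) lower than with radiotherapy alone (edgeR), and 2611 (12.6%) were higher and 2204 (10.6%) lower in all 4 pairs. The count of 249 fell to 0 without the CD11c+CD11b+ pair, 1 without the CD11c-CD11b+ pair, 22 without the CD11c+CD11b- pair and 100 without the CD8 T pair. All 224 genes called higher were also tested with anti-PD-1. They included 12 of the 24 listed matrix genes and are not independent of one another, so their count is no measure of replication. Of the 224, 206 (92%) had a positive shared change with both antibodies over anti-PD-1. The share of all genes with a positive change was not computed, and the median of all genes tested was 0.007. The median log2 change of the 224 was 0.47, and 154 (68.8%) were higher in all 4 of those pairs, against 6.92% of all genes. The 18 others held the neutrophil genes Retnlg, S100a8, S100a9, Cxcr2, Lcn2, G0s2 and Wfdc21 and the haemoglobin genes Hba-a1, Hba-a2, Hbb-bs and Hbb-bt. Of 23 genes called lower and tested in both, 12 were negative with both antibodies over anti-PD-1, and the median of the 23 was -0.008. In all 4 pairs 1 of them was lower, against 4.44% of all genes.

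Matrix genes had positive list medians in both settings. After radiotherapy alone, 12 of the 24 were called higher with anti-SIRPa, against 1.08% of all genes, and the list median was 0.57. Col6a2 stood at 188, 293, 266 and 490.1 CPM with anti-SIRPa and 85.4, 128, 106 and 209 CPM with radiotherapy alone (1.22 ± 0.06 SE; adjusted p = 0.0064, edgeR), and at 66.2, 112, 61.1 and 159 CPM with both antibodies and 32.5, 65.4, 48.1 and 129 CPM with anti-PD-1 (0.61 ± 0.12 SE; adjusted p = 0.193, edgeR). Col3a1 stood at 736, 1275, 1153 and 2031 CPM with anti-SIRPa and 484, 681, 565 and 1094 CPM with radiotherapy alone (0.86 ± 0.08 SE; adjusted p = 0.012, edgeR). Col1a2 had a change of -0.49 ± 0.24 SE in these libraries and was not called. Fbn1 and Cd34 had changes of 0.22 and 0.38 (adjusted p = 0.22 and 0.074, edgeR). Summed over the list, the matrix genes stood at 4801, 7966, 5700 and 12470 CPM with anti-SIRPa and 4026, 5708, 3514 and 9907 CPM with radiotherapy alone.

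The 1 gene that was called lower after radiotherapy alone and was lower in all 4 pairs with both antibodies was Siglech. It stood at 2.99, 0.523, 47.4 and 0.119 CPM with anti-SIRPa and 6.78, 1.39, 172 and 0.388 CPM with radiotherapy alone (-1.57 ± 0.15 SE; adjusted p = 0.012, edgeR). Siglech was thus lower with anti-SIRPa in all 8 pairs. Only the CD11c+CD11b- libraries held more than 6.78 CPM of it, and the CD11c-CD11b+ libraries held at most 0.388 CPM. The pairs of a setting come from the same pools and are not replicates. The difference between the settings was 0.63 ± 0.52 SE (adjusted p = 1, edgeR).

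The difference between the anti-SIRPa changes with and without anti-PD-1, tested in the 16 irradiated libraries with 9 residual degrees of freedom, passed for 4 of 21243 genes (0.0188%), and 4.18% had an unadjusted p under 0.05. S100a9 stood at 16.9, 115, 4.8 and 1447 CPM with anti-SIRPa and 6.91, 19.2, 1.3 and 183 CPM with radiotherapy alone, higher in all 4 pairs (2.31 ± 0.27 SE), and the difference between settings was -2.96 ± 0.37 SE on the log2 scale (adjusted p = 0.021, edgeR). Retnlg, a resistin-like gene of neutrophils, stood at 2.2, 13, 0.484 and 166 CPM with anti-SIRPa and 0.443, 3.07, 0 and 32.6 CPM with radiotherapy alone, and at 0.379, 2.24, 0 and 40 CPM with both antibodies and 0.92, 3.71, 0.427 and 72.1 CPM with anti-PD-1. Its difference was -3.27 ± 0.39 SE (adjusted p = 0.021, edgeR). G0s2, a lipolysis inhibitor gene that neutrophils express, stood at 1.95, 10.5, 0.782 and 109 CPM with anti-SIRPa, 0.709, 3.39, 0.445 and 18.6 CPM with radiotherapy alone, 0.517, 3.27, 0.188 and 36 CPM with both antibodies and 1.46, 4.1, 0.384 and 61.1 CPM with anti-PD-1 (-2.59 ± 0.37 SE; adjusted p = 0.049, edgeR). For these genes the CD11c-CD11b+ libraries held most of the level. The list median was 1.66 after radiotherapy alone, with 5 of 10 genes called higher against 1.08% of all genes, and -0.71 with anti-PD-1. The summed neutrophil markers stood at 93, 448, 53.8 and 3363 CPM with anti-SIRPa and 75.9, 252, 43.8 and 713 CPM with radiotherapy alone, and at 57.3, 282, 28.4 and 1069 CPM with both antibodies and 58.1, 307, 25.5 and 1725 CPM with anti-PD-1.

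Several other lists had medians of opposite sign in the 2 settings, with no member called in the test of the difference. For type I interferon genes the median was 0.19 with both antibodies over anti-PD-1, with 12 of 29 higher in all 4 pairs, and -0.17 with anti-SIRPa over radiotherapy alone, with 14 of 29 lower in all 4. The shares of all genes differed between the settings. In the first, 6.92% were higher in all 4 pairs, and in the second, 10.6% were lower in all 4. Interferon gamma response genes had medians of 0.14 and -0.20 in the same order, and 2 of the 21 were called lower after radiotherapy alone, against 0.121% of all genes. Macrophage genes had medians of 0.29 and -0.23, and MHC class II genes 0.02 and -0.64. Of the MHC class II genes, 8 of 11 were lower in all 4 pairs after radiotherapy alone, against 10.6% of all genes. Erythroid and platelet genes had medians of -0.19 and 0.68, with 4 of 10 called higher after radiotherapy alone, against 1.08% of all genes.

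Ccl17, a chemokine of dendritic cells that attracts CCR4-bearing T cells, was the fourth gene and had the opposite sign. It stood at 0.749, 8.58, 13.8 and 0.474 CPM with anti-SIRPa and 1.77, 53.9, 51.7 and 1.17 CPM with radiotherapy alone (-2.02 ± 0.24 SE; adjusted p = 0.019, edgeR), and at 0.723, 32, 38.2 and 1.01 CPM with both antibodies and 0.996, 29.2, 34.9 and 0.699 CPM with anti-PD-1. The difference between settings was 2.13 ± 0.31 SE (adjusted p = 0.049, edgeR). No gene passed this test when the CD11c+CD11b+ or the CD11c-CD11b+ libraries were left out, and 2 did without the CD8 T or the CD11c+CD11b- libraries. Each setting rests on 1 pool per treatment, so a difference between pools and one between treatments cannot be told apart.

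**Figure D5:**
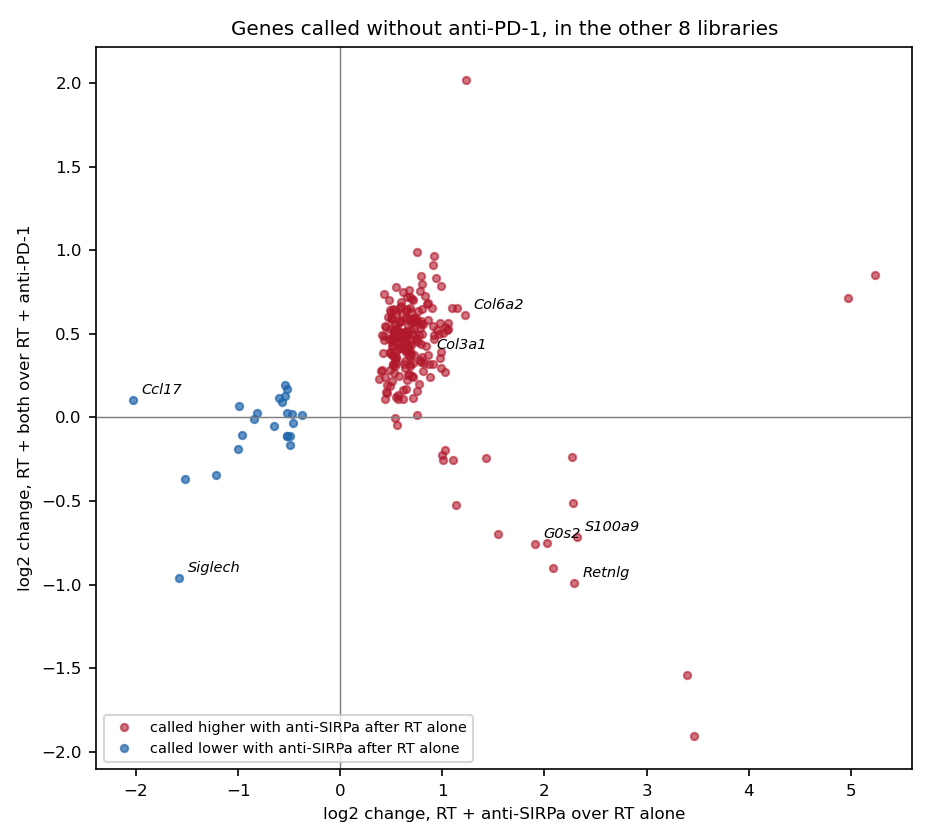
Genes called with anti-SIRPa over radiotherapy alone, and their change in the libraries with anti-PD-1. The x axis is the log2 change of 8 Gy with anti-SIRPa over 8 Gy alone and the y axis that of 8 Gy with both antibodies over 8 Gy with anti-PD-1. Of the 224 genes called higher (red), 206 lie above 0, while S100a9, Retnlg and G0s2 lie below it. All genes tested had a median of 0.007 on the y axis.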

How the data were processed

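The values were estimated counts per transcript, deposited by the authors as whole numbers. FastQC 0.11.8, HISAT2, StringTie and edgeR 3.34.0 and the build GRCm38 are named in the submitters' processing notes, which give no settings in the sources used here. The 142699 transcripts were summed to 55260 genes with GENCODE M21, and 1230 without a match held at most 0.40% of a library. Genes were kept by filterByExpr (minimum count 10, total 15), normalised by TMM and tested with edgeR 4.0.16 (quasi-likelihood, Benjamini-Hochberg, 0.05) in R 4.3.3. SE is the absolute log2 change over the square root of F. DESeq2 1.42.0, limma 3.58.1 voom, RLE, no filter, other sample sets and leaving out each population were alternatives. Depth was 22475552 to 34189038 counts in the 8 libraries of the main comparison, and 0 columns were unused. Named genes were the markers and targets, called genes, up to 10 per direction at least 2-fold in all pairs (predicted genes left out), up to 4 per list by size of change at 10 CPM or more in 2 libraries, and up to 5 per direction in each test of a difference (not every gene the rule gave is named); other named genes were chosen after their values were seen. Members, markers and the 39 lists were chosen with earlier results of these data known. Lists are described by counts and medians, with no set test.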

Additional observations from a re-analysis of the deposited data

Results flagged for a closer look

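The change with both antibodies over anti-PD-1 differed from the change with anti-SIRPa over radiotherapy alone, by edgeR's test of the difference itself, in 4 genes. The log2 differences were -2.96 for S100a9, -3.27 for Retnlg, -2.59 for G0s2 and 2.13 for Ccl17. The first 3 were lower in the CD11c-CD11b+ cells with both antibodies than with anti-PD-1, and higher in the same cells with anti-SIRPa than with radiotherapy alone.

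The change in the 1 CD8 T pair differed from that of the other 3 pairs, by the interaction test, in 18 genes, a count that ran from 5 to 173 when 1 of those 3 was left out. The CD8 T pair has no replicate. Among the named ones the log2 difference was 3.72 for Aff3, 1.96 for Ube2l3, 1.53 for Rmrp_ENSMUSG00000088088, 7.90 for Klra17 and -2.48 for Glcci1. Klra17 had 0 CPM in the CD8 T library with anti-PD-1, and its fitted difference depends on the prior count and is no bound.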

How the results depend on the processing

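The 4 genes called for the shared change with both antibodies over anti-PD-1 became 0 with no filter on low counts, with no population term, in a fit of all 20 libraries, in a fit of the 16 irradiated libraries and with overlapping genes summed to loci, 1 with limma voom, 121 with DESeq2, 3 with RLE and 8 with a mean of 0.5 CPM or more. Leaving out 1 population gave 0 to 7. The 18 genes of the CD8 T difference became 7 with RLE, 1 with no filter, 7 with loci and 16 with DESeq2, and 5 to 173 with 1 population left out. The 249 genes with anti-SIRPa over radiotherapy alone became 62 with no filter and 1007 with DESeq2, and 0 to 100 with 1 population left out. The 4 genes of the difference between settings became 2 with RLE, 0 with no filter and 43 with DESeq2, and 0 to 2 with 1 population left out. The 15 genes at 2-fold in all 4 pairs became 3 with a prior count of 10, 0 at 10 CPM or more in 2 libraries and 22 with a prior count of 0.5. The loci and the 0.5 CPM filter were chosen after seeing the data. Of 77 gene results 70 kept their sign in every alternative run. Sirpa was 0.0089 with no filter, and -0.13 to 0.10 with 1 population left out. With 1 population left out, Cd47 was -0.083 to 0.035 and Ifng -0.18 to 0.20. Ifng was 0.016 with voom and 0.022 with no population term, and Pdcd1 was -0.059 with no population term. Summed to loci, the Myl12b record was -0.039, the Rmrp record 0.22 and the CD8 T difference of Glcci1 0.067. For the other settings the cause was not tested.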
